A study of Rattus norvegicus with 6 samples.

Results

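Nppa and Nppb, the genes for the natriuretic peptides ANP and BNP, were followed in the hearts of rats with streptozotocin-induced diabetic cardiomyopathy (DCM) and of control rats. The 2 genes are a fixed pair among the 21554 genes of the count table, ENSRNOG00000008176 (Nppa) and ENSRNOG00000008141 (Nppb), given by identifier and kept if they passed a check of identity. The pair was proposed with earlier results of these data known. The read count divided by FPKM (fragments scaled by gene length and library size) and by the library total gave the same gene length in every heart, 1206 nucleotides for Nppa and 1036 for Nppb. Both lengths were under the limit of 1500 set for these short transcripts, and the lowest level in any heart was 80.7 FPKM for Nppa and 30.9 FPKM for Nppb, so both passed the check, which asked for a short transcript with clear expression in heart and did not use the comparison of the groups.

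The animals were male Sprague-Dawley rats, 6 to 8 weeks old at arrival. The 3 control rats (1, 2 and 3) received citrate buffer, and the 3 model rats (3, 4 and 8) received a single intraperitoneal dose of 65 mg/kg streptozotocin (STZ), which destroys insulin-producing cells, in the same buffer. Model rats entered the study only if they became hyperglycemic, and all hearts were taken 5 months after the injection. The labels give the tissue as heart and name no chamber. The library totals ran from 17588259 to 17948961 counts in control hearts and from 16617803 to 17734095 in model hearts.

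ANP and BNP are hormones that heart muscle releases when its walls are stretched. They act on the receptor guanylyl cyclase Npr1, which makes cGMP, and so promote sodium excretion and relax vessels, while Npr3 clears them from the blood. In the adult heart the atria make far more ANP than the ventricles, and ventricular Nppa and Nppb are widely used as markers of hemodynamic load and of the fetal gene programme. The 2 genes lie next to each other on rat chromosome 5, between 2510039O18Rikl and Clcn6, and no other gene of the RefSeq table overlaps either of them.

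GATA, TEAD and Nkx2-5 factors are known to act near the start of natriuretic peptide genes, and their part in these data was not tested. The sequences before the 2 genes are shown as background. They are RefSeq sequences of build GRCr8, plus strand, chr5:163711934-163712183 for Nppa (250 bases) and chr5:163699758-163699954 for Nppb (197 bases, up to the first annotated base of the gene). Capitals mark GATAA (the core of GATA sites), GGAATG (the M-CAT element of TEAD factors) and AAGTG (the core of Nkx2-5 sites), each searched on both strands, and no match overlapped another.
Nppa: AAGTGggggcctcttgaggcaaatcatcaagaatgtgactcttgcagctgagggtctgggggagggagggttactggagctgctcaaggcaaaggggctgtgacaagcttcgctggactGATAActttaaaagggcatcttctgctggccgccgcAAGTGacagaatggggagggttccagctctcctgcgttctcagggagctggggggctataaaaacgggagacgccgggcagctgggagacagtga
Nppb: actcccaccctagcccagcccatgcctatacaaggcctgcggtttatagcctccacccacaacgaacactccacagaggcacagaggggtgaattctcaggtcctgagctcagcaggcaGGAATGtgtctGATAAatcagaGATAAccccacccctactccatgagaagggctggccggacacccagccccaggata

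The Nppa stretch held GATAA once and AAGTG at 2 places, with GATAA beginning 131 bases before the listed start. The Nppb stretch held GGAATG once and GATAA at 2 places, beginning 131, 120 and 109 bases before its listed start. For Nppb that listed start is the end of the 250-base window, beyond the printed 197 bases. These Nppb distances are therefore not counted from the first annotated base, and the matches lie closer to the end of the printed stretch. GATAA occurred in 23.5% of all 33469 listed promoters over 250 bases and in 19.9% over 197 bases, 2 or more GATAA matches over 197 bases in 3.11%, GGAATG over 197 bases in 9.58%, and 2 or more AAGTG matches over 250 bases in 10.5%. GATAA was the motif found in both stretches, and these matches are a description of letters, not of binding.

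Nppa was dominated by 1 heart of each group. In CPM (read counts brought to a common library size with TMM scaling, which assumes that most genes do not change), Nppa measured 164, 108 and 1500 in control rats 1, 2 and 3, and 90.5, 861 and 109 in model rats 3, 4 and 8. The heart of control rat 3 was 9.13 times the next control heart, and that of model rat 4 was 7.87 times the next model heart, whereas the 4 other hearts lay between 90.5 and 164. The raw counts behind these values were 2545, 1857 and 23832 in control hearts and 1618, 18972 and 1813 in model hearts, so counting error is small beside this difference between hearts.

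Nppb was highest in the same heart of each group, over a smaller range. It measured 101, 106 and 366 CPM in control rats 1, 2 and 3, and 29.8, 113 and 43.2 CPM in model rats 3, 4 and 8. The heart of control rat 3 was 3.45 times the next control heart and that of model rat 4 was 2.61 times the next model heart. Model rats 3 and 8 lay below every control heart, and model rat 4 lay just above control rats 1 and 2, so the groups overlapped. The smallest count, 532 in model rat 3, was 0.00320% of that library (95% Wilson interval 0.00294% to 0.00349%, which covers counting error only).

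**Figure D1:**
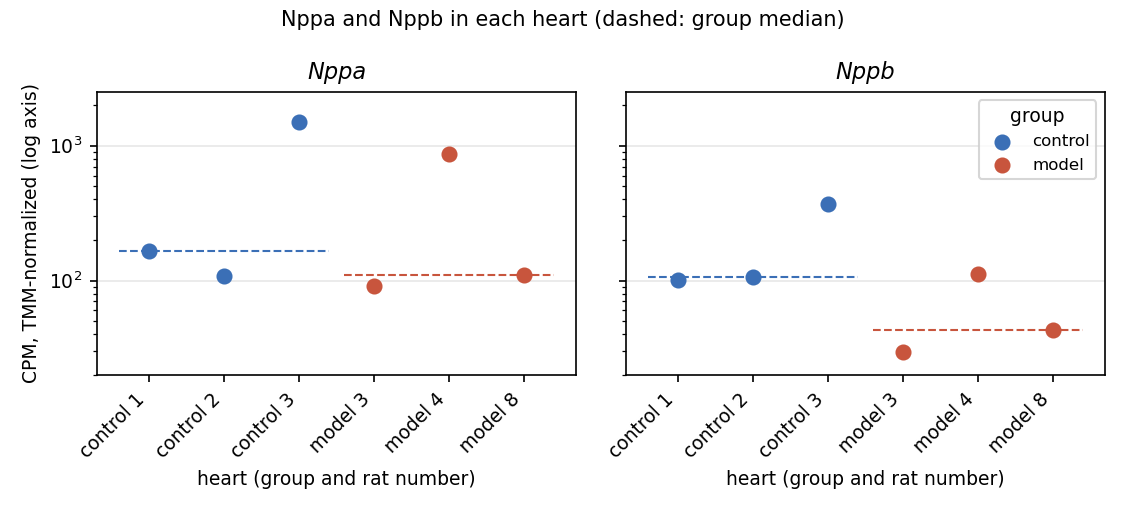
Level of Nppa (left) and Nppb (right) in each heart, in TMM-normalized CPM on a log axis, with control hearts in blue, model hearts in red and the median of each group dashed. Control rat 3 (1500 and 366 CPM) and model rat 4 (861 and 113 CPM) were the highest of their groups for both genes.

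The comparison of model with control hearts asks whether DCM changed the expression of these load-responsive hormones. For Nppa the means were 591 ± 788 CPM in control and 354 ± 440 CPM in model hearts (SD, n = 3 each), and the medians were 164 and 109 CPM. The log2 fold change was -0.74 (standard error 1.10, 95% interval -3.24 to 1.76, edgeR's quasi-likelihood test, adjusted p = 0.629 by Benjamini-Hochberg over 13895 genes), so no difference was detected, and the interval spans changes from well below to well above the control level. The direction rested on control rat 3. Without that heart the log2 fold change was 1.37 (edgeR adjusted p = 0.323), and without model rat 4 it was -2.60 (edgeR adjusted p = 0.102).

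For Nppb the means were 191 ± 152 CPM in control and 61.9 ± 44.5 CPM in model hearts (SD, n = 3 each), and the control median of 106 CPM was 2.46 times the model median of 43.2 CPM. The log2 fold change was -1.63 (standard error 0.62, 95% interval -3.03 to -0.23). This interval is not adjusted for the number of genes. It uses a spread moderated with that of all genes, and only 3.26% of tested genes varied more within groups than Nppb. The unadjusted p of edgeR's test was 0.0275, and the adjusted p of 0.0689 missed the threshold of 0.05. Of the 9 pairings of a model heart with a control heart, the model heart was lower in 7 (and in 6 of 9 for Nppa). The exact two-sided permutation test on log2 CPM gave p = 0.3 for Nppb and p = 0.6 for Nppa, where 3 hearts against 3 cannot give a value under 0.1. In bulk tissue, fewer muscle cells and less peptide RNA per muscle cell cannot be told apart.

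The call for Nppb turned on which heart was left out. Without model rat 4 its log2 fold change was -2.43 with an edgeR adjusted p of 0.0209, and without control rat 3 it was -0.75 with an edgeR adjusted p of 0.31. With both of these hearts left out, a choice made after the values of Nppa were seen and therefore given with no test, the log2 fold change was -1.51 for Nppb and -0.45 for Nppa. Keeping low genes in the test gave Nppb a log2 fold change of -1.65 and an edgeR adjusted p of 0.0263.

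Neither gene was called, which took an adjusted p under 0.05 together with at least a doubling or halving, while 21.7% of the tested genes were called in edgeR's test and 13.2% were called lower. Likewise for neither gene did the levels of the groups part without overlap, as those of 51.8% of the tested genes did. The log2 fold change of Nppb was low among all genes, since 7.87% of the tested genes had a lower value, against 20.6% for Nppa. Their standard errors were also large, with 6.59% of the tested genes above Nppb and 0.266% above Nppa, so these ranks are descriptions only. Scaling moved the log2 fold changes of both genes together with those of all other genes. With library totals in place of TMM the median log2 fold change of all genes went from 0.076 to 0.345, and relative to that median Nppb stayed between -1.70 and -1.61 and Nppa between -0.82 and -0.65 over the 5 scalings run.

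**Figure D2:**
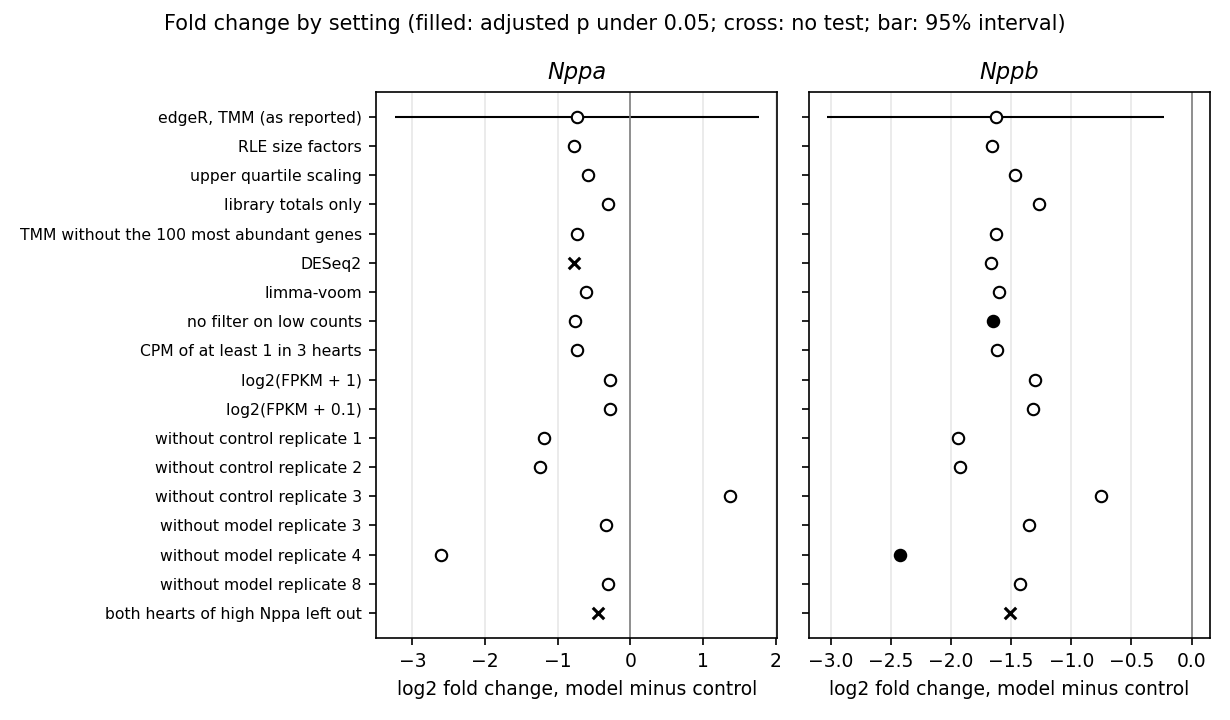
Log2 fold change of Nppa (left) and Nppb (right), model minus control, under the reported fit (top, with its 95% interval as a bar), under other scalings, tools, filters and units, and with hearts left out; filled points had an adjusted p under 0.05 and crosses carry no test. Nppb was negative in every setting shown, from -0.75 to -2.43, while Nppa reached 1.37 without control rat 3.

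The spread between hearts of 1 group set both genes apart from most others. The pooled within-group standard deviation of log2 CPM was 1.92 for Nppa and 1.02 for Nppb, against a median of 0.32 over the 13895 tested genes. Of these, 29 tested genes (0.209%) varied more than Nppa and 453 (3.26%) more than Nppb. Among the 4141 genes whose average log2 CPM reached 5, a limit chosen after the values were seen, 4 varied more than Nppa and 35 more than Nppb. Both genes had at least 532 counts in every heart.

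**Figure D3:**
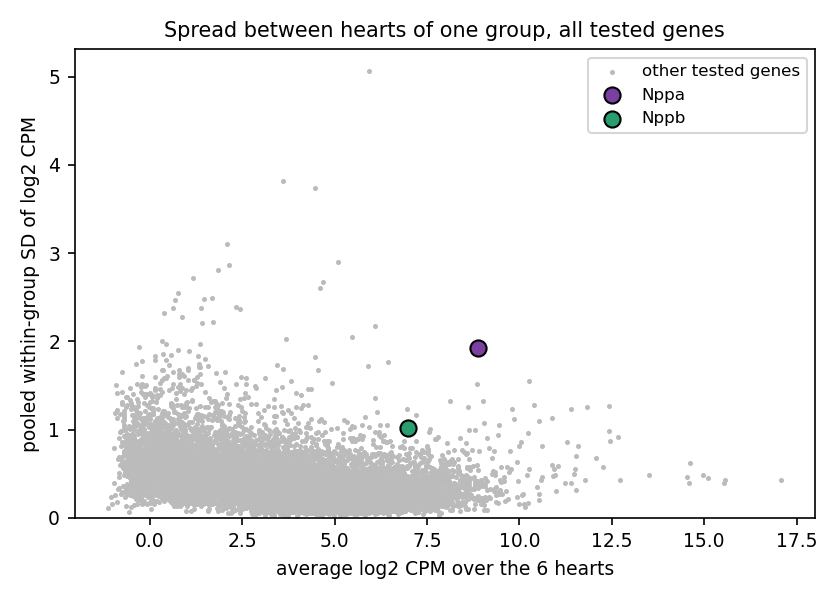
Pooled within-group standard deviation of log2 CPM (vertical) against average log2 CPM (horizontal) for each of the 13895 tested genes, with Nppa in purple and Nppb in green. Nppa (1.92) and Nppb (1.02) stand above the bulk of genes of like abundance, whose median at a log2 CPM of 5 or more was 0.25.

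Few genes shared the pattern of Nppa. A gene was counted, after the values were seen, if its CPM in control rat 3 was at least a given multiple of both other control hearts and its CPM in model rat 4 at least the same multiple of both other model hearts. At 3 times, 3 of the 13895 genes met this, Nppa, ENSRNOG00000009450 and ENSRNOG00000019780. ENSRNOG00000009450 had 49, 53 and 314 counts in control and 0, 3 and 0 counts in model hearts. ENSRNOG00000019780 had 25, 33 and 93 counts in control and 0, 10 and 0 counts in model hearts, so the multiples of both in model hearts rest on few reads. At 2 times, 6 genes met it, Nppb among them, and at 1.5 times 38 genes (0.273%). At 2 times, 19 genes were lower by the same measure in both hearts.

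Compared per length, Nppa stood among the most abundant transcripts in the 2 high hearts. Ranked by FPKM over all 21554 genes, it was number 35 in control rat 3 (1101 FPKM) and number 31 in model rat 4 (887 FPKM), and between number 321 and number 515 in the 4 other hearts (80.7 to 120 FPKM). Nppb was number 114 in control rat 3 (313 FPKM) and number 291 in model rat 4 (135 FPKM). It was number 431 and 445 in control rats 1 and 2, and number 1235 and 768 in model rats 3 and 8, where it measured 30.9 and 41.0 FPKM. The lowest ranks of Nppb were thus in model hearts, and those of Nppa were spread over both groups.

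The ratio of the 2 peptide genes within a heart does not depend on how libraries are scaled. Per length, Nppa was 1.40, 0.873 and 3.52 times Nppb in control rats 1, 2 and 3, and 2.61, 6.56 and 2.18 times Nppb in model rats 3, 4 and 8. Each model heart exceeded control rats 1 and 2, and control rat 3 exceeded model rats 3 and 8, so the groups overlapped. On the log2 scale of counts the ratio was 0.92 ± 1.02 in control and 1.96 ± 0.85 in model hearts (SD, n = 3 each). The difference of 1.04 was not told apart from the spread of the hearts (two-sided exact permutation test, p = 0.3), and leaving out single hearts moved it between 0.55 (without model rat 4) and 1.60 (without control rat 3).

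**Figure D4:**
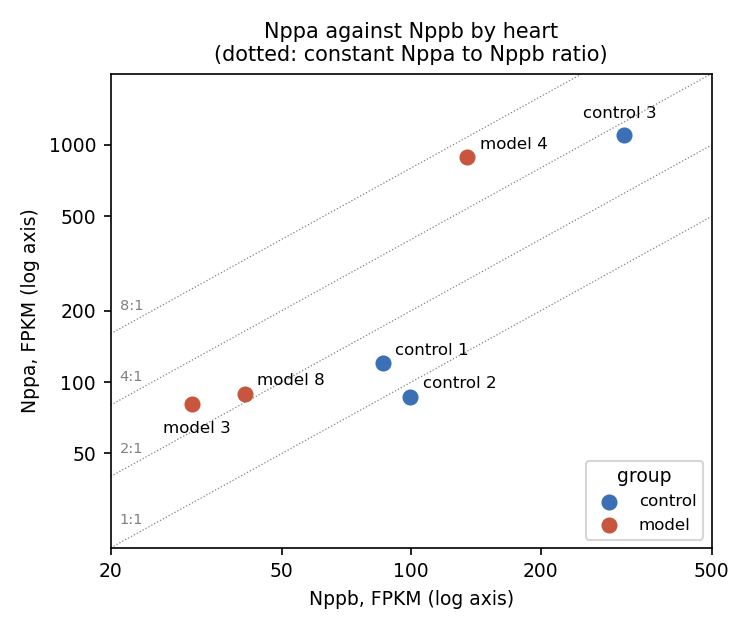
Nppa against Nppb in each heart, in FPKM on log axes, with control hearts in blue and model hearts in red; dotted lines mark constant ratios of Nppa to Nppb. Control rat 3 and model rat 4 lie far above the 4 other hearts, and model hearts lie to the left of the control heart nearest to them in Nppa.

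Across the 6 hearts, the genes whose log2 CPM moved most like Nppa were ENSRNOG00000007849 (Pearson r = 0.97) and ENSRNOG00000019232 (r = 0.96), and Nppb stood at position 29 of 12130 genes (r = 0.82). These correlations lean on control rat 3 and model rat 4, since r was 0.67, 0.61 and 0.70 over the 4 other hearts. Most like Nppb were ENSRNOG00000043099 (r = 0.98, and 0.96 over the 4 other hearts) and ENSRNOG00000020996 (r = 0.97, and 0.93). Nppa was at position 364 in that order. The fold of these genes was small beside that of the peptides, as ENSRNOG00000043099 ranged from 25.5 to 40.6 CPM. The tables used here pair these 4 identifiers with no symbol.

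Symbols could be given only to genes that the study lists as higher in model hearts, so named genes opposite in pattern are better covered than named genes alike. Among those, after Nppb itself, Nr4a3 (r = 0.47) and Tceal5 (r = 0.47) were most like Nppa, and AABR07030773.1 (r = -0.75), Ccl19 (r = -0.70) and Ly49si2 (r = -0.67) least. Nr4a3 and Tceal5 stood only at positions 624 and 643 of 12130 genes. Without control rat 3 and model rat 4, r with Nppa was -0.23 for Nr4a3 and 0.28 for Tceal5. It was then -0.61 for AABR07030773.1, -0.063 for Ccl19 and -0.55 for Ly49si2. Most opposite to Nppb were Ly49si2 (r = -0.97), Ranbp3l (r = -0.94) and Fah (r = -0.94), of which Fah encodes the last enzyme of tyrosine breakdown. Fah measured 3.10, 2.38 and 1.45 CPM in control rats 1, 2 and 3 and 8.67, 3.99 and 4.89 CPM in model rats 3, 4 and 8, which mirrors the order of Nppb in the highest and lowest hearts. Tceal5 (r = 0.097) and Nr4a3 (r = 0.020) were the named genes after Nppa with the highest values for Nppb. With 6 hearts and many genes searched, these are descriptions and carry no test.

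Of 54 other genes of the natriuretic peptide pathway and its known regulators, 7 could be paired with an identifier, through the list of higher genes. That list was made from these same samples, so it fixes their direction and favours genes with little spread within a group, and neither is independent evidence. The list favours low adjusted p-values in the same way, so those given for these genes are descriptions and not independent tests. All 7 were called higher in edgeR's test, beside 8.46% of all tested genes called higher, with a median log2 fold change of 1.60 (range 1.05 to 2.42) against 0.076 over all tested genes. None of the ligands Nppc and Ostn, the processing and clearance enzymes, the transcription factors, the fetal programme partners and the receptors Npr1 and Npr3 could be paired.

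Among the receptors, Npr2, the guanylyl cyclase that binds C-type natriuretic peptide, measured 29.4, 38.7 and 29.1 CPM in control rats 1, 2 and 3 and 95.5, 55.2 and 50.3 CPM in model rats 3, 4 and 8. Its log2 fold change was 1.05 (standard error 0.27, edgeR adjusted p = 0.0168). Of the phosphodiesterases that break down cyclic nucleotides, Pde2a, which cGMP itself stimulates, measured 59.1, 55.4 and 63.6 CPM in control hearts and 132, 125 and 140 CPM in model hearts. Pde9a, which hydrolyses cGMP, measured 10.9, 6.57 and 8.37 CPM in control hearts and 32.3, 21.8 and 24.5 CPM in model hearts. Their log2 fold changes were 1.15 and 1.60 (standard errors 0.16 and 0.25, edgeR adjusted p = 0.0015 and 0.00211). The p-values of Npr2, Pde2a and Pde9a are no independent evidence, since the list of higher genes supplied all of them.

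Several agents are known to induce natriuretic peptide genes in heart muscle cells, and 4 of 7 such genes on the list could be paired. Edn1, the precursor of the vasoconstrictor endothelin-1, measured 1.81, 0.930 and 1.64 CPM in control hearts and 6.54, 6.49 and 10.4 CPM in those of model rats. This is a log2 fold change of 2.42 (standard error 0.37, edgeR adjusted p = 0.00194). Agtr1a, a receptor for angiotensin II, had a log2 fold change of 1.18 (standard error 0.27). The cytokine genes Il1b and Tnf had log2 fold changes of 2.24 and 1.95 at low levels, with 9 to 16 and 6 to 12 counts in control hearts. The groups did not overlap in any of the 7 genes, as in 51.8% of all tested genes, and the list they came from favours this.

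Within a group the highest and lowest hearts differed by at most 1.99 times in these 7 genes, a spread that the list limits, against 13.9 times for Nppa and 3.63 times for Nppb in control hearts. Control rat 3 was the highest control heart for 2 of the 7 and model rat 4 the highest model heart for 1. In edgeR's test Npr2 lost an adjusted p under 0.05 without control rat 1 (0.0595) or control rat 3 (0.0748), and Agtr1a without control rat 2 (0.0514) or control rat 3 (0.055). Without model rat 3 the log2 fold change of Npr2 was 0.65 (edgeR adjusted p = 0.0232), under the limit of 1 for a call.

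**Figure D5:**
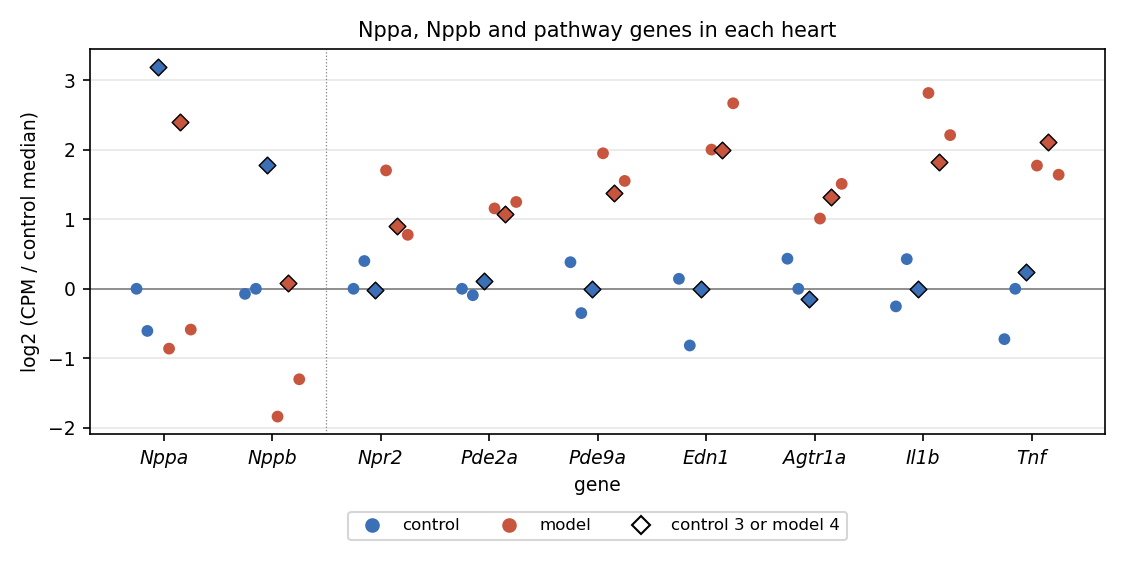
CPM of Nppa, Nppb and the 7 paired pathway genes in each heart, as log2 of the ratio to the median control heart, with control hearts in blue, model hearts in red and diamonds for control rat 3 and model rat 4. The diamonds stand high for Nppa and Nppb and within the other hearts of their group or close to them for the pathway genes.

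Marker genes could be checked only in part, since symbols came from higher genes, and none of the 6 cardiomyocyte and none of the 5 ventricular markers could be paired. Of 10 atrial markers, Nr2f2, which venous endothelium also expresses, was paired. It measured 35.3, 25.9 and 27.6 CPM in control rats 1, 2 and 3 and 68.1, 79.0 and 79.0 CPM in model rats 3, 4 and 8. The list it came from favours genes with little spread within a group, so these levels do not bear on the atrial share. How much atrial muscle each sample held was not tested. Of 12 endothelial markers 8 were paired, all from the list of higher genes and none at 0, and their summed level was 844 to 1196 CPM in control hearts and 2604 to 3279 CPM in model hearts. Since all 8 came from that list, a higher sum in model hearts was fixed in advance. The part of this sum in the result for Nppb was not tested. Of 8 fibroblast markers Postn was paired through the same list, at 1.51 to 5.48 CPM in control and 17.1 to 31.7 CPM in model hearts. None of the 5 immune and none of the 5 smooth muscle and pericyte markers could be paired.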

How the data were processed

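Total RNA of 6 hearts was extracted with TRIzol, made into NEBNext Ultra libraries and sequenced on an Illumina NovaSeq. The submitters' processing notes name HISAT2 2.0.5, StringTie 1.3.3b and build mRatBN7.2, and the counting tool and strand setting are not given in the sources used here. For each gene the authors deposited a raw count of reads, not normalized, and an FPKM value, which the authors made from the same counts with 1 length per gene. The implied length agreed within 0.1% in all hearts for 20347 of 20347 genes with a count.

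Counts of 16617803 to 17948961 per library were analysed with edgeR 4.0.16 (R 4.3.3), using filterByExpr (13895 genes), TMM scaling and the quasi-likelihood test, model against control, with no covariate. Each standard error was obtained from the fold change and its F statistic. The script was tested on simulated data with 196 changed genes among 13690. At an adjusted p under 0.05 alone it recovered 140 of them, each with the right sign, and made 9 false calls. In the data 35.1% of the tested genes passed that threshold in edgeR's test, so the simulated rates do not carry over to the calls reported here. Levels are TMM-scaled CPM, and log2 CPM used a prior count of 2. Exact permutation tests used scipy 1.17.1 (Python 3.11.15). Precision is limited by 3 hearts per group. The p-values set the difference of the groups against the spread between these hearts, which edgeR's test moderates with the spread of all genes. DESeq2 1.42.0, limma 3.58.1, other scalings, filters and pseudocounts (1 and 0.1) on FPKM, and each heart left out in turn were alternatives.

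The members, gene lists and tests were chosen with earlier results of these data known. Named genes are Nppa and Nppb, paired members of a written pathway list, and by Pearson correlation over 6 hearts (average log2 CPM of at least 1) the 2 genes most like each member and the 3 symbols most and least like it. The other genes were named from the study's list of higher genes, read in part (1076 symbols), as the RefSeq table of GRCr8 holds 0 Ensembl identifiers. Promoters were matched to RefSeq by symbol, for 2 of 2 genes. Protein sequences were not used here.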

Additional observations from a re-analysis of the deposited data

How the results depend on the processing

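No paired analysis was possible because control and model rats have just the number 3 in common, and it belongs to different animals. Nppb was lower in model hearts in all 10 other scalings, tools, filters and units, with log2 fold changes from -1.67 to -1.27 and adjusted p-values from 0.0263 to 0.111, of which the fit with no filter on low counts (-1.65) passed 0.05. DESeq2 gave Nppb an adjusted p of 0.104 and gave Nppa no p-value. Nppa ran from -0.78 to -0.28 in the same 10 settings and passed in none of those that gave it a p-value. With each heart left out in turn Nppa ran from -2.60 to 1.37, turning without control rat 3, and Nppb from -2.43 to -0.75. The cause was not tested.

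The 3014 called genes (1175 higher and 1839 lower) became 4873 (2243 higher, 2630 lower) with no fold change threshold and 1979 (561 higher) with control rat 3 and model rat 4 left out, a setting added after seeing the data. Higher and lower genes were 2300 and 1359 with library totals, 1706 and 1550 with upper quartile scaling, 1097 and 1088 on log2(FPKM + 1), and 2101 and 1380 on log2(FPKM + 0.1). Leaving out single hearts gave 2145 to 3112 genes, 657 to 1279 higher (657 without control rat 2 and 678 without control rat 3) and 1488 to 1950 lower. Of the 7 pathway genes, 5 to 7 were called in those fits and 4 with both hearts left out. Control rat 3 and model rat 4 were chosen by their Nppa values, so the counts without both are descriptions and not tests. The count of genes that shared the pattern of Nppa depends on the multiple asked for (3 genes at 3 times, 6 at 2 times and 38 at 1.5 times).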
